A study of Mus musculus with 2 samples.

Results

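The 10 genes described here, Iqsec1, Iqsec2, Iqsec3, Agap1, Agap2, Agap3, Asap1, Asap2, Git1 and Git2, encode regulators of Arf GTPases and were taken from the 21424 genes that RefSeq names cover in these data. Arf proteins are small GTPases that switch between a GDP-bound and a GTP-bound form on membranes, where they recruit coats and lipid kinases and shape the actin cytoskeleton. Guanine nucleotide exchange factors (GEFs) load them with GTP and GTPase-activating proteins (GAPs) return them to the GDP form. In neurons these regulators act at synapses, in endosomal recycling and in the remodelling of focal adhesions and spines. The 3 Iqsec genes encode GEFs and the 7 Agap, Asap and Git genes encode GAPs.

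RNA was sequenced from N2A cells, a mouse neuroblastoma line, 3 days after lipofection of a plasmid for a control shRNA (shControl) or for an shRNA against Ptbp1 (shptbp1). Each group was 1 strand-specific library of 1 cell line, so no difference below has a replicate check and none carries a p-value. PTBP1 is an RNA-binding protein that binds pyrimidine-rich sequence and represses many neuronal exons. Of 17 neuroblastoma and neuronal markers 0 were listed at 0 in both libraries, and they summed to 2894 and 2755 per 1000000 of the whole Cufflinks signal (depth times length), against 6.14 and 4.85 for 6 glial markers and 3.52 and 7.34 for 6 fibroblast markers.

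Splicing was read in trios, sets of 3 consecutive exons in which SpliceTrap estimates the percent of transcripts that include the middle exon (percent spliced in, PSI). A trio of the cassette class has a middle exon that its exon database lists as skippable, and one of the constitutive class does not. The genes held 242 of 228333 trios, and 221 of these, around 178 distinct exons, reached 20 reads in both. The genes were chosen with these PSI values in view, so the counts that follow describe the choice and no test was made on them. Trios that share an exon also share reads.

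PSI rose by at least 5 points in 16 of the 221 trios (7.24%), against 2.73% of all 145628 trios. It fell by at least 5 points in 5 (2.26%), against 2.66%. The median delta PSI, knockdown minus control, was 0.0 points in the 10 genes and in all trios. The 16 trios that rose covered 13 exons. A second measure of inclusion used junction reads alone, in which the average count of the junctions into and out of the exon was divided by itself plus the skipping count. Requiring in addition that the 95% Newcombe interval of its difference did not include 0 left 9 trios that rose, against 0.749% of all trios, and 1 that fell, against 0.733%. These intervals, and the Wilson and exact intervals below, cover counting error at most. Each group has 1 library, and reads are not independent molecules. Among 11 trios of the cassette class 6 rose, against 16.4% of all such trios, and 1 fell, against 15.0%. With the interval apart from 0 these were 5, against 8.4%, and 1, against 6.47%. Among 198 trios of the constitutive class 7 rose, against 1.4%, and 4 fell, against 1.56%. Of the 10 cassette-class exons in these genes 9 were a multiple of 3 nucleotides (nt) long (90.0%), compared with 48.6% of 6565 such exons overall.

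**Figure D1:**
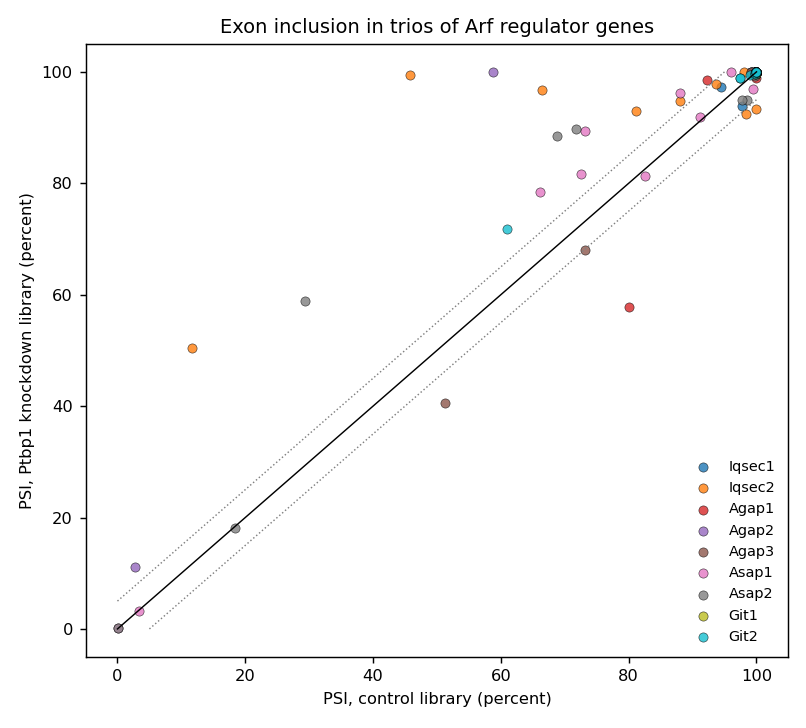
PSI in control cells (x axis, percent) against PSI in the Ptbp1 knockdown library (y axis, percent) for each trio with at least 20 reads in each library, coloured by gene. The dotted lines mark a difference of 5 points. Of 221 trios, 181 were above 95 in both libraries, and 8 that SpliceTrap listed at 0 in both libraries are not drawn. Of the trios outside the dotted lines, 16 lie above and 5 below.

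Most exons of these genes were included at the ceiling in both libraries. The 8 trios listed at 0 in both libraries had reads on inclusion junctions alone, so their value of 0 could not be read as skipping. They lay in Asap1 (4), Asap2 (2), Git1 (1) and Git2 (1). Trios just inside the threshold were the 162-nt exon of Agap1 (6.3 points), the 30-nt exon of Iqsec2 (-6.0) and the 171-nt exon of Agap3 (-5.0). Just outside it were a 123-nt exon of Iqsec2 (4.2) and the 167-nt exon of Iqsec1 (-4.0).

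Sequences are printed for the exons with the largest differences in junction reads and for those with pyrimidine tracts beside them, each read 5′ to 3′ on the transcribed strand from the mm9 genome. In the first set capitals mark the exon and lower case the intron before it. Coordinates span the printed run. The set shows the 96-nt and 50-nt exons of Iqsec2 (chrX:148615336-148615635 and chrX:148656576-148656875, + strand) and the 60-nt exon of Agap2 (chr10:126526958-126527257, + strand), whose upstream introns ranked highest in pyrimidines among the exons named here.
Iqsec2 96-nt exon: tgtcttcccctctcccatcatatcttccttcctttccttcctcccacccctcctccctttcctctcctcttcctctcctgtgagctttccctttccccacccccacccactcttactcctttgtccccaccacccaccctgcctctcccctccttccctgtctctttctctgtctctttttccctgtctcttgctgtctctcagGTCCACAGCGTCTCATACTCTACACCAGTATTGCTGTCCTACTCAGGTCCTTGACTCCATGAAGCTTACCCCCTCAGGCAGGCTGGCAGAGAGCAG
Iqsec2 50-nt exon: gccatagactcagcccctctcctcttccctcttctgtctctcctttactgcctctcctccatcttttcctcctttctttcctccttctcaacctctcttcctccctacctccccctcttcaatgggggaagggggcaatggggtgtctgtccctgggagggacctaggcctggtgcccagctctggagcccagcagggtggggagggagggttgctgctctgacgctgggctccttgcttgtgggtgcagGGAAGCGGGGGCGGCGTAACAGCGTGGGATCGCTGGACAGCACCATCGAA
Agap2 60-nt exon: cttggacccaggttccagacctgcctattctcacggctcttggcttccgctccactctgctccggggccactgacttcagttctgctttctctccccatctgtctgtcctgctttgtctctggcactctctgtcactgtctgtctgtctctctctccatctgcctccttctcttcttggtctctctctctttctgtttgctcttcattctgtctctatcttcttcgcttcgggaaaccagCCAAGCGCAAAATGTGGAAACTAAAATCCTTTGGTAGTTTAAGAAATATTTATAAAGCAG

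The second set shows the 9-nt exons of Asap1 (chr15:63985406-63985514, - strand) and Asap2 (chr12:21220123-21220231, + strand), which differ at 1 position, and the 90-nt exon of Git2 (chr5:115187357-115187496, - strand), whose pyrimidines lie inside the exon. Capitals again mark the exon.
Asap1 9-nt exon: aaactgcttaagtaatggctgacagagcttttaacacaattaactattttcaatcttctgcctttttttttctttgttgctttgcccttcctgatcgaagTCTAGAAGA
Asap2 9-nt exon: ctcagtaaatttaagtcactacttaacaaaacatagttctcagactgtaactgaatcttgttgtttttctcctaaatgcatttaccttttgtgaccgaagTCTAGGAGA
Git2 90-nt exon: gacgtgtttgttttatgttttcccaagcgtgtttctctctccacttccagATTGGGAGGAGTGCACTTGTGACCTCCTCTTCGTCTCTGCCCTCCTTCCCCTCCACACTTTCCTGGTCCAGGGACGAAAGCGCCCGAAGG

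Iqsec2, which encodes an Arf GEF of the postsynaptic density, held the junctions with the largest ratios between libraries among those of these genes with at least 20 reads in all. Its 96-nt exon is coding in 1 annotated transcript of 14 exons. That transcript starts inside the gene and has 2847 coding bases, against 3462 to 4464 in the other coding transcripts. The exon is also the middle exon of a short annotated transcript of 3 exons with no coding sequence. This short transcript starts at the same position and ends in a 736-nt exon. PSI of the 96-nt exon in the trio that ends there was 66.4 in control cells and 96.7 in knockdown cells. The junction into the exon had 7 reads in control cells and 105 in knockdown cells, and the junction from it to the 736-nt exon had 17 and 170. The skipping junction had 4 reads in each. The difference in PSI from junction reads was 22.2 points (6.77 to 46.7).

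Reads on the inclusion junctions therefore increased without a matching loss of skipping reads. Scaled to all junction reads, the first of them was 19.1-fold higher in knockdown cells (95% exact conditional interval 8.97 to 48.8) and the second 12.8-fold higher (7.74 to 22.4). Coverage rose at all 3 exons of the short transcript, from 13.4 to 133 reads per 100 nt at the first, from 25.0 to 289 at the 96-nt exon and from 28.5 to 183 at the 736-nt exon. Of the reads that left the 96-nt exon, 81.0% joined the 736-nt exon in control cells (17 of 21, Wilson interval 60.0 to 92.3) and 97.1% in knockdown cells (170 of 175, 93.5 to 98.8). The other exit, to the 262-nt coding exon of the coding transcript that holds the 96-nt exon, had 4 reads in each library. A further trio around the same 96-nt exon, singled out after its values were seen, went from 45.7 to 99.5 and had the largest delta PSI of the 221 trios, with 45 and 138 reads.

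Without those inclusion junctions, the junctions of Iqsec2 together had 737 reads in control cells and 733 in knockdown cells, 1.27-fold higher after scaling (1.14 to 1.41). The median gene was 0.17 higher on the log2 scale by the same measure, against 0.34 for these junctions. The short transcripts that Cufflinks assembled here differed in structure between libraries. The one in control cells was 816 nt long, the length without the 96-nt exon, at a mean depth of 21.3 reads per base. The one in knockdown cells was 914 nt long, the length with it, at a depth of 105. These depths belong to different isoforms and give no fold change.

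**Figure D2:**
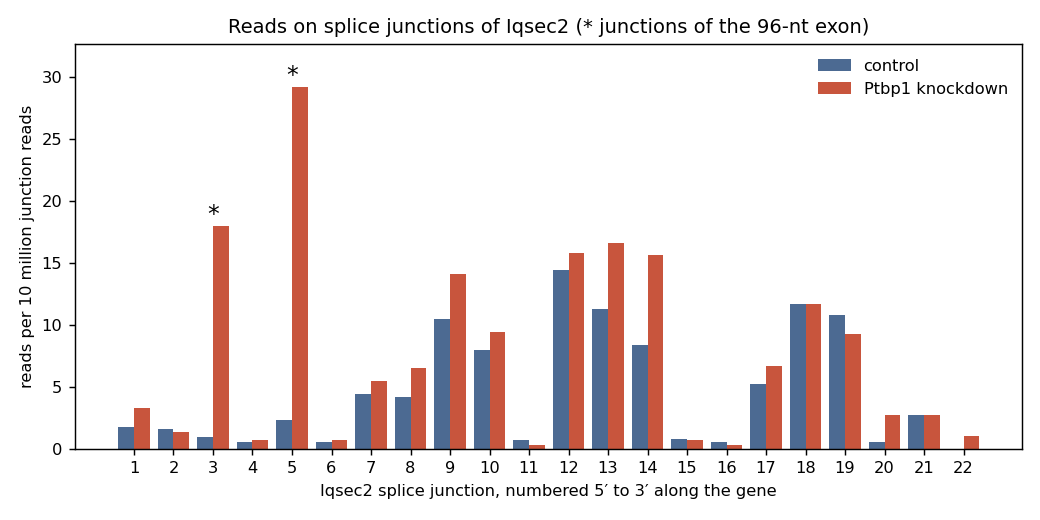
Junction reads scaled to library size (y axis, per 10000000 junction reads) on each of the 22 Iqsec2 splice junctions with at least 5 reads over both libraries, numbered 5′ to 3′ (x axis), in the control and Ptbp1 knockdown libraries. Asterisks mark the junctions of the 96-nt exon to the first exon and to the 736-nt exon of the short transcript, which had 7 and 17 reads in control cells and 105 and 170 in knockdown cells.

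The 50-nt exon near the 3′ end of Iqsec2 is coding, its length is not a multiple of 3, and it lies before the last exon. Its PSI was 11.7 in control cells and 50.4 in knockdown cells. Inclusion junctions had 4 and 0 reads in control cells and 16 and 6 in knockdown cells, and the skipping junction had 20 and 15. The difference from junction reads was 33.2 points (8.09 to 53.1). Coverage of the exon went from 8.0 to 44.0 reads per 100 nt, while that of the exon before it was 44.3 and 43.1 and that of the exon after it 44.6 and 47.9. Here inclusion moved while the flanking exons stayed level, unlike at the 96-nt exon. Its trio held 1090 and 1168 reads in all, so the few junction reads made up a small share of them.

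The other Iqsec2 exons past 5 points had junction differences whose intervals included 0. A 99-nt exon went from 81.1 to 93.0 and the overlapping 126-nt form, which shares its acceptor, from 88.1 to 94.8, both against the same skipping junction with 6 and 4 reads. The 30-nt exon went from 98.4 to 92.4 with 1 and 2 skipping reads. The 262-nt exon went from 99.9 to 93.3 with 0 and 1 skipping reads.

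Iqsec1, which encodes an Arf GEF that acts on integrin and receptor endocytosis, showed no exon past 5 points in its 15 trios. Its largest difference was at the 167-nt exon, 97.8 in control cells and 93.8 in knockdown cells, with 3 and 7 skipping reads. Iqsec3, which encodes a GEF of inhibitory synapses, was not measurable in these cells. None of its 17 trios had more than 4 reads in either library, and its RefSeq isoform was listed at 0 in both.

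Of the Agap genes, Agap1 had an exon with lower inclusion in knockdown cells. Agap1, whose product binds an adaptor complex of endosomes, had the 1 fall in which the junction interval did not include 0. PSI of its 159-nt coding exon was 80.1 in control cells and 57.8 in knockdown cells. Inclusion junctions had 180 and 128 reads in control cells and 148 and 106 in knockdown cells, while the skipping junction had 45 and 102. The difference from junction reads was -21.9 points (-30.3 to -13.0). The 162-nt exon that follows it went from 92.3 to 98.6, with 6 and 2 skipping reads in a trio that passes over the 159-nt exon, and its junction difference of 4.03 points had an interval that included 0 (-1.04 to 10.3). In the trio that holds the 159-nt exon it went from 99.9 to 98.9. Cufflinks gave another picture of the same exon. Its RefSeq isoform without the 159 nt had a depth of 10.5 in control cells and was listed at 0 in knockdown cells, while the isoform with them had 58.1 and 69.5.

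Agap3, a paralogue of Agap1, has 2 adjacent exons that align to the 2 of Agap1 just described. The 171-nt exon of Agap3 aligned to the 159-nt exon of Agap1 over 156 positions with 107 identical (68.6%), and its 138-nt exon to the 162-nt exon over 137 positions with 102 identical (74.5%). The crossed pairings aligned with 64.7% and 57.1% identity and had no identical run over 5 nt, against runs of 15 and 13 nt. Exons only are printed for the first pair, at chr1:91662881-91663039 and chr5:24002551-24002721 on the + strand, and capitals mark the bases identical in the alignment.
Agap1 159-nt exon: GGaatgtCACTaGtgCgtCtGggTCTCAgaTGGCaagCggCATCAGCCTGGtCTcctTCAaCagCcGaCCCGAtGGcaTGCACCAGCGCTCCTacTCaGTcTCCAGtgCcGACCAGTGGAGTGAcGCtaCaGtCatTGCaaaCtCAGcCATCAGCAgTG
Agap3 171-nt exon: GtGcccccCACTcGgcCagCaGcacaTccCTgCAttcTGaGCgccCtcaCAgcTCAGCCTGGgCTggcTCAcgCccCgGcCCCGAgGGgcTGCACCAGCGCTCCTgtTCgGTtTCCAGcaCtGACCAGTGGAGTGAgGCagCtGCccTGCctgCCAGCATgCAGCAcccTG

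PSI of the 171-nt exon of Agap3 was 73.1 and 68.1, with 1 skipping read in each library, and that of the 138-nt exon was 51.3 and 40.5, with 13 and 11. The junction differences were -0.59 points (-10.9 to 7.58) and -6.30 points (-21.2 to 7.11). Neither trio counts the junction that skips both exons, which had 480 reads in control cells and 407 in knockdown cells. Of all reads that left the exon before the pair, 13.6% entered the 171-nt exon in control cells (76 of 557, Wilson interval 11.0 to 16.7) and 16.2% in knockdown cells (79 of 488, 13.2 to 19.7). The difference was 2.54 points (-1.77 to 6.93). The pair was thus skipped in most transcripts of both libraries. Entry into it from the exon before was not lower in knockdown cells, whereas PSI of both trios was. On the other side the direction was that of PSI. Scaled to all junction reads, the junction from the 171-nt to the 138-nt exon was lower in knockdown cells. So was the junction from the 138-nt exon to the exon after the pair. The junction that skips both exons was not lower on this scale. The intervals of these log2 ratios, each taken for a single junction, included 0. The ratio was -0.428 (-0.912 to 0.045) for the junction from the 138-nt exon to the exon after the pair. It was 0.114 (-0.0805 to 0.307) for the junction that skips both. The share of reads entering the exon after the pair was not computed, so the sides of the pair were not compared by the same measure. Whether that share was lower in knockdown cells was not tested. Inclusion of the 171-nt exon from the junctions of its trio alone, 98.1 and 97.6, counts as skipping only the reads that pass from the exon before it to the 138-nt exon.

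Agap2, which encodes a GAP with a GTPase-like domain that enhances phosphoinositide signalling in neurons, had its 60-nt coding exon skipped in most transcripts of both libraries. Inclusion junctions had 0 and 2 reads in control cells and 11 and 1 in knockdown cells, against 51 and 58 skipping reads. PSI was 2.8 and 11.2, and the junction difference of 7.45 points had an interval that included 0 (-2.15 to 17.2). That measure averages 2 junctions with unequal counts. With the larger inclusion junction of each library alone, inclusion was 3.77 and 15.9, a difference of 12.2 points, for which no interval was computed. Coverage of the exon was 6.67 and 21.7 reads per 100 nt, with 55.8 and 64.3 at the exon before it. The 256-nt exon of Agap2 was listed at 58.8 in control cells and 99.9 in knockdown cells, but had no skipping read in either. Its junction reads gave 100 in both, and the SpliceTrap ratio before its own correction was 57.3 and 74.0, so that the difference of 41.1 points was not seen in junction reads.

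Asap1 and Asap2 encode GAPs with a membrane-bending BAR domain that act at focal adhesions, and each gene has a 9-nt coding exon that keeps the reading frame. The exons are identical at 8 of 9 positions (A6G, counted from 1 at the 5′ end of the exon, from Asap1 to Asap2), and the 100 nt before them at 37 of 100 without gaps. PSI of the Asap1 exon was 73.2 in control cells and 89.3 in knockdown cells in one trio, and 88.0 and 96.2 in the other. In these trios the skipping junctions had 51 and 47 reads in control cells and 12 and 8 in knockdown cells. The junction from the exon to the next one had 138 and 317 reads in control cells and 94 and 206 in knockdown cells, and the junctions into it 0 to 31.

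PSI of the Asap2 exon was 68.8 in control cells and 88.4 in knockdown cells. The skipping junction had 66 and 23 reads and the junction into the exon 137 and 166. A second trio around the exon, with another first exon, gave 71.7 and 89.8. Both genes thus had the 9-nt exon in most transcripts of either library, and fewer skipping reads in knockdown cells.

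Reads across exons this short were counted almost only at 1 of their 2 junctions, the one into the exon in Asap2 and the one out of it in Asap1, which lowers inclusion taken as the mean of both. By that measure the differences were 22.2 points (7.53 to 34.4) and 14.7 (7.00 to 21.3) in Asap1 and 25.9 (14.3 to 36.3) in Asap2. With the larger inclusion junction alone they were 15.7, 9.17 and 20.3 points, and inclusion was 73.0 and 88.7 in the first Asap1 trio and 67.5 and 87.8 in Asap2, near the PSI values. Cufflinks assigned the Asap2 RefSeq isoform of 5535 nt a depth of 83.6 in control cells and 25.1 in knockdown cells, and the isoform of 5544 nt, which is 9 nt longer, 86.2 and 130.

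By PSI, alternative donors beside these 9-nt exons moved in the same direction, but they were not independent of them. A 4-nt extension of the Asap2 exon upstream of the 9-nt exon went from 29.3 to 58.8, and 40-nt and 36-nt extensions in Asap1 from 66.1 to 78.5 and from 72.5 to 81.7. Each of these trios used the same skipping junction as a trio of the 9-nt exon. The junction intervals of the Asap1 extensions included 0. An extension directly continues the exon before it, so reads between them are not spliced. In Asap2 these unspliced reads went from 18 to 29, while reads on the splice junction of the extension went from 10 to 5. The splice junctions of the Asap1 extensions went from 1 to 0 and from 72 to 23. The junction measure averages spliced and unspliced counts here, also in the Asap2 trio, which is 1 of the 9 that rose with an interval apart from 0.

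Other skippable exons of the Asap genes stayed level. The 171-nt exon of Asap1, with the most reads of any cassette-class exon here, had a PSI of 82.6 and 81.3 from 188 and 155 skipping reads, a junction difference of -1.91 points (-5.39 to 1.49). The 135-nt exon of Asap2 was at 18.4 and 18.1, a difference of 0.17 points (-10.9 to 10.4).

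Git1 and Git2 encode GAPs that scaffold PIX exchange factors and paxillin at adhesions and synapses. PSI of the 90-nt coding exon of Git2 was 61.0 in control cells and 71.7 in knockdown cells. Inclusion junctions had 88 and 71 reads in control cells and 75 and 67 in knockdown cells, and skipping reads went from 58 to 30. The junction difference was 12.5 points (0.086 to 24.1), with a lower bound near 0. No trio of Git1 met the conditions for an alternative exon. Of its 17 trios 16 had a PSI of at least 99.6 in both libraries, and the trio of its 27-nt cassette-class exon was listed at 0 with no skipping read.

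**Figure D3:**
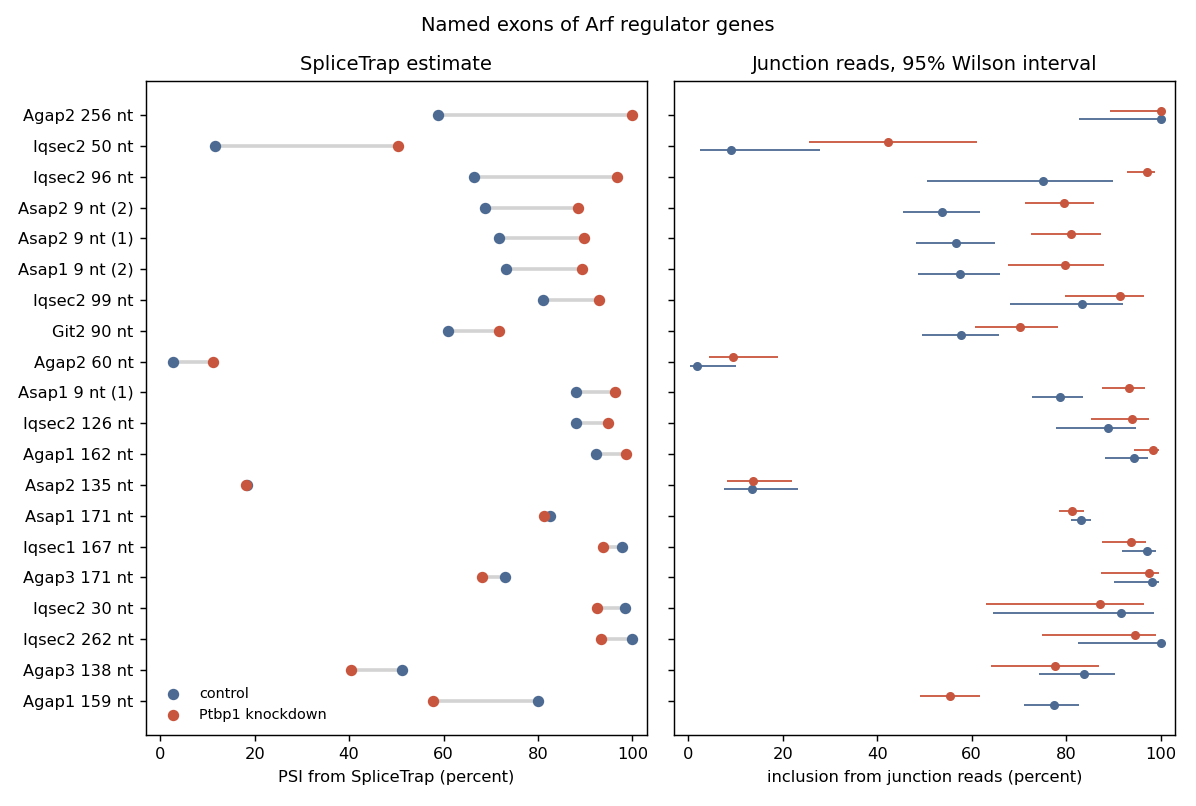
Left, PSI from SpliceTrap (percent), and right, inclusion from junction reads alone (percent) with 95% Wilson intervals, for the 20 named exon trios of these genes in the control and Ptbp1 knockdown libraries, sorted by delta PSI. Numbers in parentheses separate trios of the same exon, and donor extensions are left out. The intervals of the 159-nt exon of Agap1, the 96-nt exon of Iqsec2 and the 9-nt exons of Asap1 and Asap2 lie apart between libraries. The 256-nt exon of Agap2 was at 100 in both by junction reads. The Agap3 values leave out the junction that skips both of its exons.

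Each RNA-binding domain of PTBP1 can hold a short pyrimidine element, and the share of overlapping triplets made of C and T alone was computed in the 250 nt upstream of each named exon. PTBP1 also binds elements with G among the pyrimidines, which this share does not count. The median over 6558 cassette-class exons was 19.0%. The 96-nt exon of Iqsec2 had 71.4% (percentile 99.9 of those exons), the 60-nt exon of Agap2 43.1% (99.3) and the 50-nt exon of Iqsec2 41.9% (99.2). In the last, the tract lies in the distal part of the window, as the sequence above shows, and is followed by a purine-rich stretch before the exon. All 3 had higher PSI in knockdown cells, but exons were named in part by delta PSI, and a link with pyrimidines was not tested. The junction interval of the Agap2 exon, taken from the mean of its inclusion junctions, included 0. Skipping reads at the 96-nt exon were 4 in each library.

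Other exons with differences past 5 points had values nearer the median than these, on both sides of it. The upstream value was 24.6% for the 9-nt exon of Asap1 (percentile 80.2), 19.4% for that of Asap2 (51.3), 15.3% for the 90-nt exon of Git2 (22.1) and 17.7% for the 159-nt exon of Agap1 (40.1). The exon of Git2 itself held 36.4% pyrimidine triplets (percentile 99.0 of exons). The exons of Agap3, which were lower in knockdown cells by PSI, had 30.2% and 27.8% (93.2 and 89.4). The 99-nt and 126-nt exons of Iqsec2, higher by PSI, had the lowest value of the named exons, 10.9% (4.1). Also higher by PSI were the 256-nt exon of Agap2 at 13.3% (11.6) and the 162-nt exon of Agap1 at 24.6% (80.2). The 262-nt and 30-nt exons of Iqsec2, lower by PSI, had 14.5% (17.8) and 22.6% (71.2). The hexamers CTCTCT and TTCTCT, searched on the transcribed strand with overlaps counted, occurred 6 and 2 times upstream of the 60-nt exon of Agap2. They were present at least once upstream of 17.4% and 23.3% of the cassette-class exons. Upstream of the 96-nt exon of Iqsec2 the first did not occur and the second occurred 1 time.

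**Figure D4:**
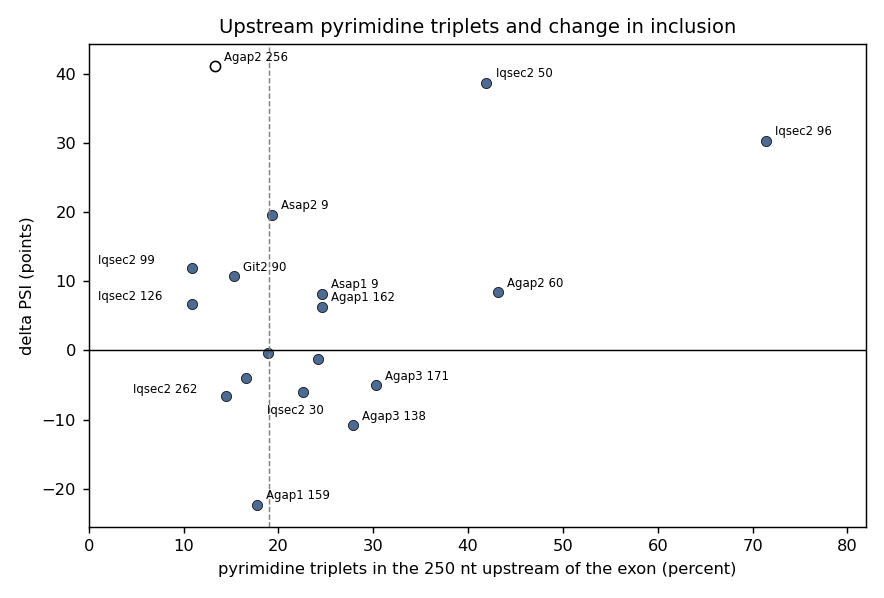
Percent of triplets made of C and T alone in the 250 nt upstream (x axis) against delta PSI in points, knockdown minus control (y axis), for the 18 named exons, with the trio of most control reads for each. The dashed line is the median of cassette-class exons (19.0%), and the open circle is the 256-nt exon of Agap2, which had no skipping reads. The 3 points beyond 40% are the 96-nt and 50-nt exons of Iqsec2 and the 60-nt exon of Agap2.

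RNA of these genes was present at graded levels. The mean depths of the isoforms assembled at each locus were added up. For Asap1 the sum was 1267 reads per base in control cells and 708 in knockdown cells. It was 542 and 516 for Git1, and 506 and 392 for Agap3. Asap2 had 196 and 168, Agap1 137 and 175, Git2 96.3 and 74.9, Iqsec1 80.2 and 86.9, Iqsec2 65.5 and 169, and Agap2 29.2 and 35.9. These sums add isoforms of different length, assembled separately in each library, and are not scaled to library size. They therefore give no fold change. In Iqsec2 the short isoform of 914 nt alone made up 105 of the 169 in knockdown cells.

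The change in RNA depended on how it was measured. As defined by RefSeq isoforms, 2 of 9 measurable genes were at least 1.5-fold higher in knockdown cells, against 20.4% of 10676 genes, and 1 was at least 1.5-fold lower, against 10.7%. Those were Iqsec1 (log2 ratio 1.83), Agap2 (0.59) and Agap3 (-1.75). In Iqsec1 and Agap3, however, the RefSeq isoforms held a share of the assembled locus that differed between libraries, 18.7% and 45.6% in Iqsec1 and 52.9% and 16.6% in Agap3. Counts on the splice junctions of each gene, scaled to the 74382387 and 58295142 junction reads of the libraries, do not use the assembly. By these, 2 genes were at least 1.5-fold higher, against 17.7% of 9575 genes, and 0 as much lower, against 1.34%. By all isoforms of the assembled locus the counts were also 2 and 0, against 19.5% and 5.3%.

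By junction reads Agap2 went from 817 to 1029 reads, a log2 ratio of 0.68 (0.55 to 0.82), and Iqsec1 from 974 to 1079, 0.50 (0.37 to 0.63). Iqsec2 went from 761 to 1008 reads, 0.76 (0.62 to 0.89). It stood at 0.34, below 1.5-fold, without the junctions of its 96-nt exon to the first exon and to the 736-nt exon of the short transcript. Asap1 went from 22653 to 14703 reads and was lower in knockdown cells, at -0.27 (-0.30 to -0.24). Agap1 stood at 0.32, Git1 at 0.32, Asap2 at 0.18, Agap3 at 0.08 and Git2 at 0.06, against 0.17 for the median gene. Over the 6 measures tried Asap1 ranged from -0.72 to -0.27, Agap2 from 0.41 to 0.68, Iqsec1 from 0.23 to 1.83, Agap1 from 0.11 to 0.47 and Git1 from 0.02 to 0.32. The other 4 genes changed sign between measures. Ptbp1 itself went from 40588 to 10676 junction reads (-1.58) and its paralogue Ptbp2 from 5683 to 10738 (1.27).

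**Figure D5:**
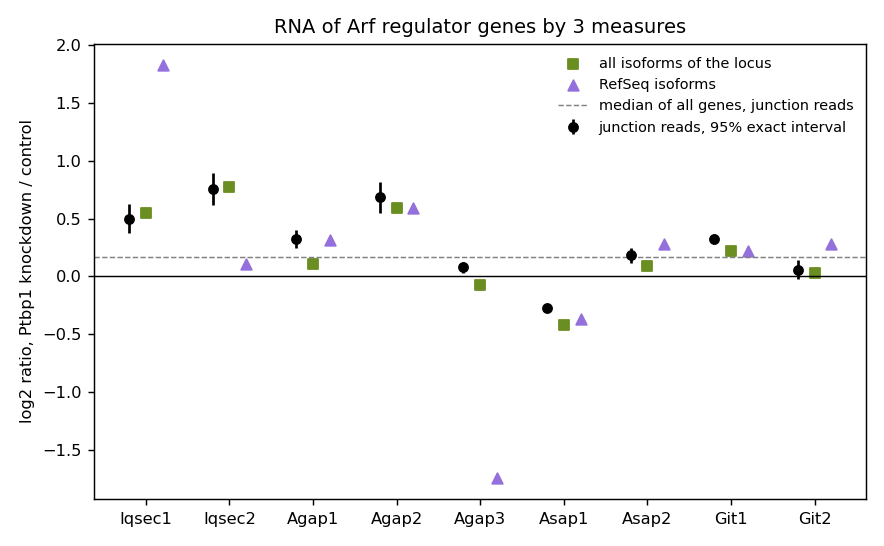
Log2 ratio of RNA, knockdown over control (y axis), for the 9 measurable genes by junction reads with 95% exact conditional intervals, by all isoforms of the assembled locus and by RefSeq isoforms. The dashed line is the median gene by junction reads (0.17). Asap1 lies below 0 by all 3 measures, and Iqsec1 and Agap3 are far from their junction values by RefSeq isoforms alone (1.83 and -1.75).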

How the data were processed

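The authors sequenced 100-base paired strand-specific libraries, 1 control and 1 Ptbp1 knockdown, and aligned them to mm9. They deposited SpliceTrap tables, with inclusion ratios as a fraction before and after its correction, read counts on each junction, and coverage (signal, reads per 100 nt). They also deposited TopHat and Cufflinks tables, assembled separately in each library, with depth (signal) and FPKM on an unusual scale. Versions were not given in the sources used here.

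Trios lay within each gene's mm9 span on its strand and needed 20 reads in each library. RNA was depth × length over RefSeq isoforms (26472 of 27601 and 26475 of 27604 matched to a gene symbol), scaled to the library total. Intervals were Wilson, Newcombe and exact conditional (95%). Named trios needed 10 junction reads per library and PSI between 5 and 95 once. They were, in each gene, the largest absolute delta PSI, others of 5 points or more, and cassette-class trios. Members and lists were chosen with earlier results of these data known. Junction reads, whole-locus signal and the reads leaving the exon before the Agap3 pair were added after the data were seen. Of 32 chromosome names 21 matched the NCBIM37 (mm9) genome, among them all those named here. Agap exons were aligned globally (match 1, mismatch -1, gap -2). Scripts used pysam 0.24.0, SciPy 1.17.1, pandas 2.3.3 and matplotlib 3.10.9 in Python 3.11.15, and the intervals were checked on simulated counts.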

Additional observations from a re-analysis of the deposited data

How the results depend on the processing

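With 1 library in each group no library could be left out and no spread between replicates is known. No paired analysis was possible because each group has 1 library. The 16 trios that rose became 11 to 18 under the other settings. The 5 that fell became 3 by junction reads alone and 2 with a threshold of 10 points, and 4 or 5 under the rest. Of 70 other values of delta PSI for the named trios 66 moved by less than the interval's half-width, 3 for the 256-nt exon of Agap2 moved further, and that of the 171-nt exon of Agap3 reversed to 2.54 points when all reads leaving the exon before it were counted, a measure added after the data were seen. The log2 ratios of RNA were less stable. Of 55 other values for the measurable genes, Ptbp1 and Ptbp2, 47 moved by more than the half-width of the junction interval. Of the rest 1 reversed and 7 stayed within it. The number of these genes at least 1.5-fold higher, 2, became 1 when scaled to the median gene. It was also 1 by summed FPKM and 1 by gene FPKM with a pseudocount of 1. The number lower, 1, became 0 by whole loci and 0 by junction reads, where Agap3 reversed to 0.08. The 3 other Arf pathway genes that were lower became 8 by gene FPKM and 1 by junction reads. The median of all genes stood at 0.07 by RefSeq isoforms, 0.17 by junction reads, -0.11 by summed FPKM and -0.10 by gene FPKM, so values near these cannot be given a direction. Depth limits the exons with few skipping reads. Causes were not tested.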

Other observations

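Other genes of the Arf pathway, a list of 51 GTPases, GEFs, GAPs, partners and effectors, also held exons that differed between the libraries. In 42 of them 783 trios reached 20 reads in both libraries, of which 17 rose by at least 5 points (2.17%, against 2.73% of all trios) and 14 fell (1.79%, against 2.66%). With a junction interval that did not include 0 these were 8 and 2, against 0.749% and 0.733% of all trios. The list as a whole did not hold a larger share than all trios at 5 points. Those 10 trios are the source of the exons named next, chosen after their values were seen. Ptk2, the focal adhesion kinase that phosphorylates paxillin, had an 18-nt exon at a PSI of 48.1 in control cells and 87.9 in knockdown cells, with 50 and 9 skipping reads. A 104-nt exon of Ptk2 went from 14.8 to 27.5 in one trio and from 79.7 to 97.4 in another. Arhgef7, the PIX exchange factor bound by the Git proteins, had a 177-nt exon at 5.3 and 18.5, with inclusion junctions of 11 and 9 reads in control cells and 77 and 35 in knockdown cells. Exons of Arap1 (33 nt, 7.2 and 21.7), Pip5k1c (78 nt, 6.8 and 18.4) and Acap2 (105 nt, 1.5 and 11.3) were also higher. A 77-nt exon of Agfg1 was higher (68.6 and 78.4), a 93-nt exon of the same gene lower (93.2 and 87.9), and a 169-nt exon of Agfg2 lower (99.9 and 88.9).

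By RefSeq isoforms 9 of 41 measurable genes of the list were at least 1.5-fold higher and 3 at least 1.5-fold lower, against 20.4% and 10.7% of all genes. By junction reads these were 9 and 1 of 42, against 17.7% and 1.34%, so the counts lie near those of all genes. Among the genes with the largest rise in their role, Asap3 (315 and 718 junction reads, log2 ratio 1.54), Psd (2687 and 3956, 0.91) and Adap1 (115 and 185, 1.04) stood past 1.5-fold by RefSeq isoforms too. Arf2 was at 4.09 by RefSeq isoforms and 0.66 by junction reads. Fbxo8, with 1934 and 910 junction reads (-0.74), was past 1.5-fold lower by both measures. Arf1 and Psd2, the others that were lower by RefSeq isoforms (-0.67 and -0.80), stood at -0.21 and 0.95 by junction reads. Arfgef1 (23061 and 12811 reads, -0.50) and Ptk2 (21282 and 11214, -0.57) had negative ratios short of 1.5-fold by both measures.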
